A study of Homo sapiens with 6 samples.

Results

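The 48 genes described here drive or mark the cell cycle: 23 act in G2 and mitosis, 17 in S phase and 8 in G1, the last group including the cyclin-dependent kinase (CDK) inhibitors. They were chosen by name, out of 27439 genes with reads. They were measured in astrocytes made from H1, an established human embryonic stem cell line. One group was given a ventral midbrain character (VM iAst) and the other was the forebrain control (Control iAst). Each group had 3 libraries, numbered 2, 3 and 4 in both, and no label gives a transgene, drug or age, or says what the numbers share. Whether each library was its own culture is not stated, so a p-value here speaks for the spread among the libraries, which may be technical.

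The cell cycle copies the genome in S phase and divides it in mitosis, and cells that leave it can rest in a quiescent state. Cyclins D and E with their kinases release E2F factors from the retinoblastoma protein, which switches on the replication genes. A later wave, driven by B-MYB and FOXM1 through the MuvB complex, which is also part of the DREAM repressor, switches on the mitotic genes. Neural progenitors cycle, whereas most mature astrocytes do not. RNA from bulk cultures cannot tell apart more cells in a phase and more RNA per cell.

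The libraries held 12477947 to 15391082 estimated reads in VM iAst and 11617935 to 14574520 in Control iAst. Replicate 3 had the fewest reads in both groups. Mitochondrially encoded genes took 9.94% to 12.6% of the reads in VM iAst, with replicate 3 at the top, and 10.2% to 11.9% in Control iAst. The astrocyte gene GFAP was at 320, 175 and 618 CPM (counts scaled to library size) in VM iAst replicates 2, 3 and 4, and at 267, 360 and 459 CPM in Control iAst. The progenitor gene SOX2 was at 440 to 480 CPM in VM iAst and at 456 to 571 CPM in Control iAst. POU5F1, which marks pluripotent stem cells, was at 0 in all VM iAst libraries and at 0 to 0.303 CPM in Control iAst.

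The promoters of these genes carry the letters of both transcription waves. The 4 stretches shown are the 120 bases just before the RefSeq start site (GRCh38.p14), read 5′ to 3′ on the gene's strand. They were picked from genes that passed the blocked test described below, 2 from G2 and mitosis and 2 from S phase. Capitals mark 3 motifs, searched on both strands: TTTGAA or TTCGAA (the cell cycle homology region, CHR), CCAAT, and the E2F letters TTTCGCGC, TTTGGCGC, TTTCCCGC or TTTGCCGC. None of these motifs contains another.
CCNB2, chr15:59105026-59105145, plus strand: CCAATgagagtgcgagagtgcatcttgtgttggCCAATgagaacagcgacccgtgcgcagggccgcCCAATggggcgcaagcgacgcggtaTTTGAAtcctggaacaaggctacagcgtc
CDC20, chr1:43358861-43358980, plus strand: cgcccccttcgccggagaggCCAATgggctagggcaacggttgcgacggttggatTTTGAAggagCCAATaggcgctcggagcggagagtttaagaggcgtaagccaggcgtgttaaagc
PCNA, chr20:5126623-5126742, minus strand: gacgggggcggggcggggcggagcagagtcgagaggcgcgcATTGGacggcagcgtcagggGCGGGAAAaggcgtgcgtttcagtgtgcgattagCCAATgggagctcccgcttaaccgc
MCM7, chr7:100101398-100101517, minus strand: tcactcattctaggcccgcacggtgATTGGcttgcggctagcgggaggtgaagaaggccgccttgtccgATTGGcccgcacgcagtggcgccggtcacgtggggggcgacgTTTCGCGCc

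In CCNB2 the CHR letters start 29 bases before the start site, with CCAAT at 54, 87 and 120 bases and, outside the stretch shown, at 244. In MCM7 an E2F match starts 9 bases before it. RefSeq promoters were matched for 38 of the 48 genes, each a window from 250 bases before to 50 after the start, with the first listed window used. The CHR letters were in 13 of 18 G2/M promoters (72.2%), 2 of 14 S promoters (14.3%) and 0 of 6 G1 promoters, against 16.6% of 27305 promoters. The E2F letters were in 2 G2/M (11.1%), 10 S (71.4%) and 0 G1 promoters, against 3.33% of all. CCAAT was in 15 G2/M, 11 S and 1 G1 promoters, against 35.7% of all. The 2 waves of genes thus differ in their promoter letters, which describes sequence and says nothing of binding.

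The mitotic genes stood highest in replicate 3 of both groups. MKI67, which encodes the proliferation antigen Ki-67 (chr10:128096659-128126385 in GRCh38, GENCODE), was at 461 CPM in VM iAst replicate 3, against 85.0 and 70.2 CPM in VM iAst replicates 2 and 4. In Control iAst it was at 323 CPM in replicate 3, against 61.0 and 71.8 CPM. The ratio of replicate 3 to the mean of replicates 2 and 4 was 5.92 in VM iAst and 4.83 in Control iAst (CPM with 0.5 added). Each of these ratios rests on 1 library of a group, and replicate 3 was singled out with values of these data known, so they are given without a test.

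All 23 G2/M genes were higher in both replicate 3 libraries than in all 4 others, as were 13 of 16 S genes and 1 of 8 G1 genes. Among 15984 genes tested this held for 11.5%, and the reverse, both replicate 3 libraries below all 4 others, held for 9.57% of them and for 0 of these 47 genes. The ratio was at least 2-fold in both groups for all 23 G2/M genes, 5 S genes and 1 G1 gene, against 1.8% of all genes tested. The median ratio of the G2/M genes was 4.07 in VM iAst and 4.36 in Control iAst. For the S genes it was 1.81 and 2.42, for the G1 genes 1.12 and 0.888, and for all genes tested 0.993 and 0.983. Summed over the 23 G2/M genes, the level was 6179.4 CPM in VM iAst replicate 3 against 1666.6 and 1456.1 CPM, and 4242.9 CPM in Control iAst replicate 3 against 1149.1 and 1060.0 CPM. TOP2A held a large share of these sums, and without it they were 3729.1 CPM against 946 and 753 CPM in VM iAst, and 2553.5 CPM against 648 and 540 CPM in Control iAst. The S genes summed to 1038.3 CPM in VM iAst replicate 3 against 472 and 416 CPM, and to 882 CPM in Control iAst replicate 3 against 334 and 329 CPM. The excess was thus graded by phase, with mitotic genes at the top and G1 genes near the level of all genes. The difference between phases was not tested, since genes of a phase are not replicates.

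**Figure D1:**
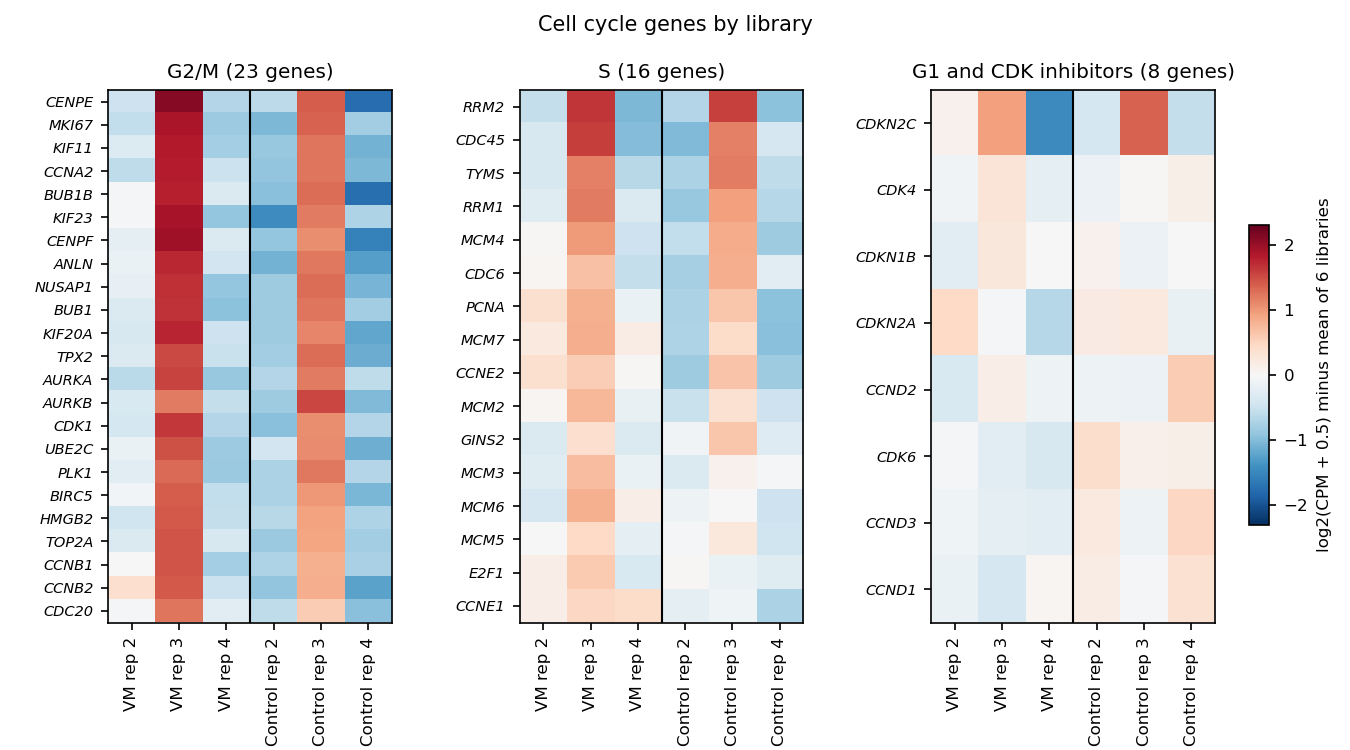
Heat map of log2(CPM + 0.5) minus the gene's mean over the 6 libraries, with the VM iAst libraries left of the line and the Control iAst libraries right of it, and genes sorted by the replicate 3 ratio. The replicate 3 columns are red for all 23 G2/M genes, paler for most S genes, and without a common colour for the G1 genes other than CDKN2C.

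The kinases and cyclins of mitotic entry spanned much of this range. CDK1, the kinase that starts mitosis, was at 158 CPM in VM iAst replicate 3 against 38.5 and 31.9 CPM in replicates 2 and 4. Its Control iAst values were 108 CPM in replicate 3 against 26.0 and 31.8 CPM. The cyclins that partner it, CCNA2, CCNB1 and CCNB2, had ratios of 5.09, 3.45 and 2.64 in VM iAst and of 4.62, 2.93 and 3.74 in Control iAst. AURKA, a centrosome kinase, had 4.89 and 3.54, and PLK1, another mitotic kinase, had 3.57 and 3.77. AURKB, the kinase of the chromosomal passenger complex, had 3.12 in VM iAst and 5.47 in Control iAst. In the summed reads it was the single G2/M gene with a higher replicate 3 level in Control iAst (95.3 CPM) than in VM iAst (74.9 CPM). BIRC5, or survivin, a partner of AURKB in that complex, was at 130 CPM in VM iAst and 97.6 CPM in Control iAst in replicate 3, with ratios of 3.23 and 3.65. In the authors' deposited normalized signal, PLK1 and BUB1B were, like AURKB, higher in Control iAst replicate 3 than in VM iAst replicate 3. The values were 1565.8 against 1346.1 for PLK1 and 759 against 733 for BUB1B.

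The highest ratio of each group belonged to a kinetochore or spindle checkpoint gene, while other genes of the spindle and cleavage furrow lay lower. MKI67, at 5.92 in VM iAst, and AURKB, at 5.47 in Control iAst, came second. CENPE, a kinetochore motor, was at 246 CPM in VM iAst replicate 3 against 40.9 and 35.7 CPM, and at 150 CPM in Control iAst replicate 3 against 37.4 and 16.6 CPM. Its ratio of 6.35 was the highest in VM iAst, and that of BUB1B, a spindle checkpoint kinase-like protein, at 5.94, was the highest in Control iAst. The motors KIF11, KIF20A and KIF23 had ratios of 4.51 to 5.13 in VM iAst and 4.36 to 4.66 in Control iAst. The spindle proteins TPX2 and NUSAP1 had 3.85 and 4.51 in VM iAst and 4.73 and 4.65 in Control iAst. ANLN, the furrow scaffold anillin, had 4.07 and 5.25. BUB1, the other checkpoint kinase, had 4.81 and 4.10. Its summed reads lay 1.23 times under the authors' deposited level relative to other genes. The order of these genes depends on the table used. With the values of the authors' deposited table, BUB1 had the highest VM iAst ratio, 9.93, ahead of ANLN at 7.77 and CENPE at 7.28, and BUB1B the highest Control iAst ratio, 8.20. In that table ANLN had 3.44 and CENPF 2.95 in Control iAst, against 5.25 and 4.77 from the summed reads, and the G2/M ratios spanned 2.33 to 9.93 in VM iAst and 2.59 to 8.20 in Control iAst.

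The lowest ratios belonged to the anaphase regulator CDC20, at 2.59 in VM iAst and 2.53 in Control iAst. Its CPM was 80.8 in VM iAst replicate 3 against 33.3 and 28.3, and 51.3 in Control iAst replicate 3 against 22.6 and 17.2. UBE2C, which works with CDC20 in the anaphase-promoting complex, had 3.79 and 3.57. TOP2A, the topoisomerase that untangles chromosomes, had 3.44 and 3.31, and HMGB2, a chromatin protein, had 3.77 and 3.04. Even the lowest of these ratios was over 2-fold, so no G2/M gene stood apart from the pattern.

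**Figure D2:**
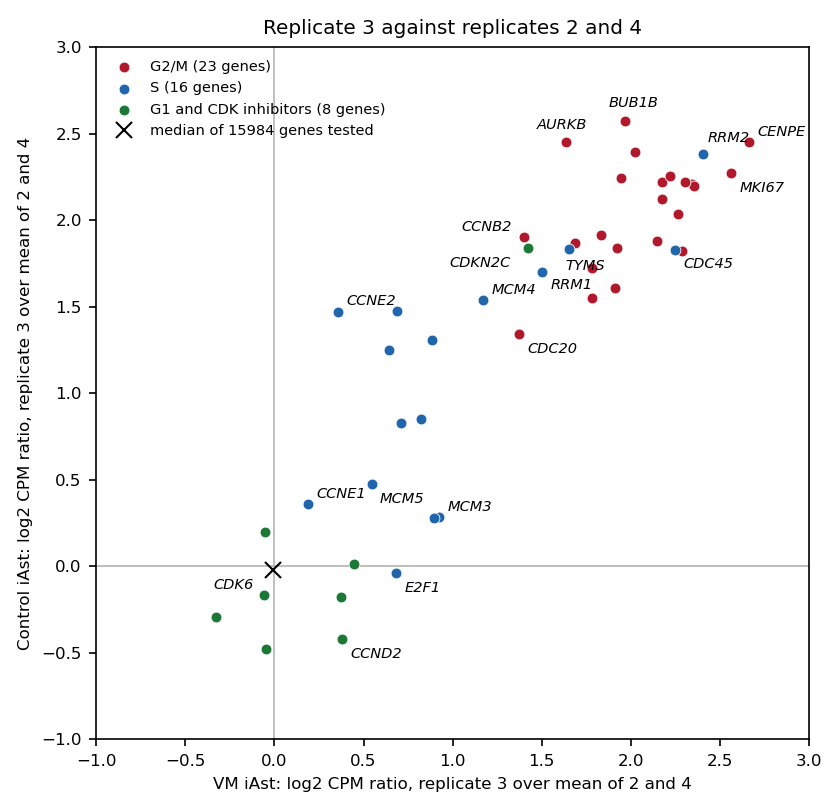
Each point is a gene, with the log2 ratio of replicate 3 to the mean of replicates 2 and 4 in VM iAst on the x axis and in Control iAst on the y axis, and the cross marks the median of all 15984 genes tested. G2/M genes lie top right, S genes spread from CCNE1 near the cross to RRM2 among the mitotic genes, and 7 of 8 G1 genes lie near the cross.

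The S phase genes spread widely. Those of nucleotide supply had ratios within the range of the G2/M genes. RRM2, the regulated subunit of ribonucleotide reductase, was at 131 CPM in VM iAst replicate 3 against 28.3 and 20.1 CPM. Its Control iAst values were 125 CPM against 25.8 and 21.3 CPM, and its ratios were 5.31 and 5.20. Its partner subunit RRM1 had 2.84 and 3.25. TYMS, which makes thymidylate, had 3.15 and 3.56, though ENOSF1 and TYMSOS overlap it on the other strand with 44.9% and 14.6% as many reads. CDC45, a part of the replicative helicase, had 4.75 and 3.55 at a low level of 2.56 to 18.2 CPM.

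The helicase core MCM2 to MCM7 moved less. MCM4 had the highest ratios, 2.25 in VM iAst and 2.90 in Control iAst (4.61 in Control iAst with the authors' deposited table). MCM7 had 1.56 and 2.38, and MCM2 had 1.77 and 1.80. MCM3 and MCM6 had 1.90 and 1.86 in VM iAst but 1.22 and 1.21 in Control iAst, and MCM5 had 1.46 and 1.39. MCM6 was at 35.8 CPM in VM iAst replicate 3 and at 20.2 CPM in Control iAst replicate 3, a level below that of VM iAst replicate 4 (22.6 CPM). The subunits of 1 hexamer therefore had unequal ratios, most of them under 2-fold.

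The remaining S genes with reads had ratios from near 1 to 2.78. PCNA, the polymerase clamp, had ratios of 1.61 in VM iAst and 2.78 in Control iAst, and the licensing factor CDC6 had 1.84 and 2.47. GINS2, a helicase cofactor, had 1.64 and 1.77. Cyclin E1 (CCNE1) had 1.14 and 1.28, and cyclin E2 (CCNE2), at 2.12 to 6.76 CPM, had 1.28 and 2.77. E2F1, the transcription factor itself, was at 16.5 CPM in VM iAst replicate 3 against 11.9 and 8.24 CPM, and at 9.58 CPM in Control iAst replicate 3 against 11.0 and 8.77 CPM. MCM6, CCNE1 and E2F1 were the 3 S genes without both replicate 3 libraries on top.

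UHRF1, which maintains DNA methylation after replication, had no reads in the gene sums, whose annotation lacks the transcript that carries its reads. In the authors' deposited table its normalized signal was 214, 356 and 276 in VM iAst replicates 2, 3 and 4, and 155, 335 and 192 in Control iAst. Replicate 3 was the highest library of each group in that table, with ratios of 1.45 and 1.92.

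The G1 genes did not follow replicate 3. Cyclin D1 (CCND1), which links growth signals to the cycle, was at 42.8 CPM in VM iAst replicate 3 against 50.4 and 57.5 CPM. In Control iAst replicate 3 it was at 54.9 CPM against 63.1 and 71.8 CPM, the lowest library of each group. CCND2 had ratios of 1.30 and 0.745, and CCND3 of 0.967 and 0.718. The cyclin D kinases CDK4 and CDK6 had 1.36 and 0.958 in VM iAst, and 1.01 and 0.890 in Control iAst. Among the inhibitors, CDKN1B (p27) had 1.29 and 0.885, and CDKN2A had 0.963 and 1.15 at only 2.72 to 6.44 CPM. CDKN2C (p18), an inhibitor of CDK4 and CDK6, was the exception. It was at 13.96 CPM in VM iAst replicate 3 against 7.54 and 2.22 CPM, and at 18.8 CPM in Control iAst replicate 3 against 5.19 and 4.61 CPM, with ratios of 2.69 and 3.58.

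Further genes of the cycle, listed from general knowledge, gave the same order of lists. Both replicate 3 libraries were above the others in 60 of 61 further G2/M genes, 42 of 47 further S genes tested and 3 of 22 further CDK inhibitors and p53 targets, against the 11.5% of all genes. Below the others in both were 2 of those 22, against the 9.57% of all genes. The median ratio of the further G2/M genes was 3.73 in VM iAst and 3.55 in Control iAst, and that of the further S genes was 2.16 and 2.14. Among 25 RB, E2F and DREAM regulators 11 were above the others in both replicate 3 libraries, and 4 were at least 2-fold up in both groups, against 1.8% of all genes. The list's median ratio was 1.266 in VM iAst and 1.33 in Control iAst. The 4 genes were FOXM1, with ratios of 3.98 and 4.56, MYBL2, which encodes B-MYB, with 3.04 and 3.98, and the repressor E2Fs E2F7 and E2F8, with 2.60 and 4.01 in VM iAst and 3.86 and 6.15 in Control iAst. The MuvB subunits LIN37 and LIN52 had 0.988 and 1.08 in VM iAst, and 2.02 and 1.04 in Control iAst. For the MuvB subunits LIN9 and LIN54 the deposited table gave 1.71 and 2.17 in VM iAst, and 1.41 and 1.25 in Control iAst. RB1, the retinoblastoma gene, had 1.28 and 1.03. CDKN1A (p21), the main p53-induced inhibitor, had 0.924 and 0.803, at 134 CPM in VM iAst replicate 3 and 124 CPM in Control iAst replicate 3.

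**Figure D3:**
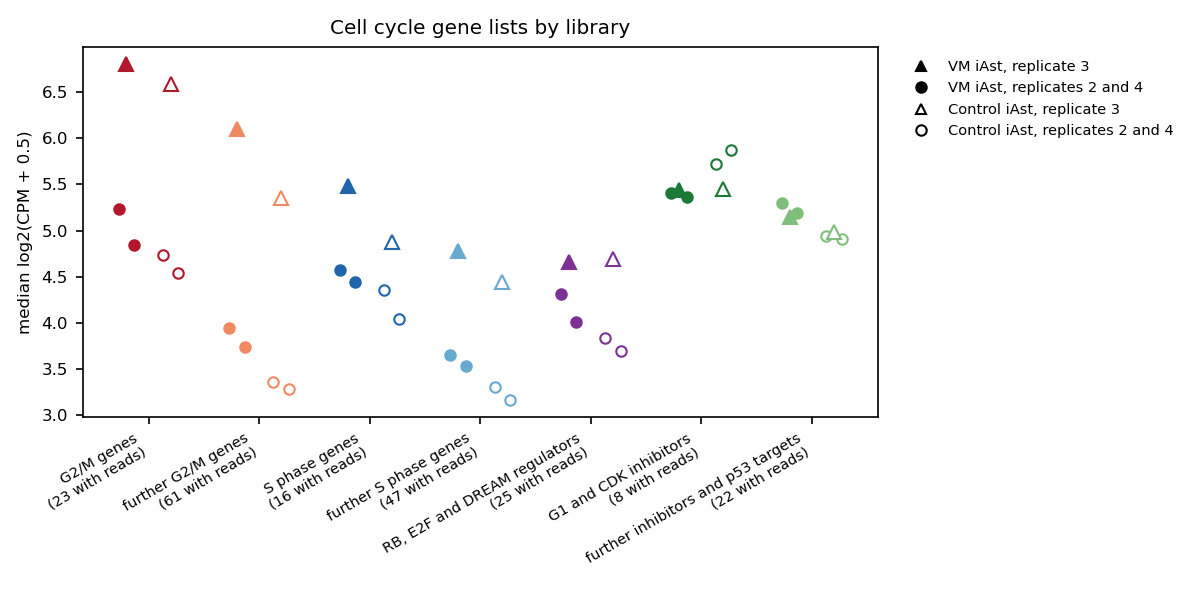
Median log2(CPM + 0.5) of each gene list in each library, with VM iAst as filled and Control iAst as open symbols, and replicate 3 as triangles. The triangles stand over the circles for the G2/M lists, the S lists and the RB, E2F and DREAM regulators, and within the span of the circles of both groups together for both inhibitor lists.

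Markers of other cell types also differed in replicate 3, in some lists through a few abundant genes. The 14 neuron markers summed to 858 CPM in VM iAst replicate 3 against 1250.1 and 1186.9 CPM, and to 1357.9 CPM in Control iAst replicate 3 against 1689.8 and 2101.0 CPM. STMN2, an early neuron gene, was at 150 CPM in VM iAst replicate 3 against 570 and 626 CPM, and at 639 CPM in Control iAst replicate 3 against 1086.7 and 1455.9 CPM. Without STMN2, left out after its values were seen, the sum was highest in replicate 3, at 708 CPM against 680 and 561 CPM in VM iAst and 718 CPM against 603 and 645 CPM in Control iAst. The list's median ratio was 0.977 in VM iAst and 1.01 in Control iAst. The 14 astrocyte markers summed to 1779.7 CPM in VM iAst replicate 3 against 2844.1 and 3279.6 CPM, and to 2369.4 CPM in Control iAst replicate 3 against 2658.4 and 3581.7 CPM. The 11 astrocyte markers other than GFAP, CD44 and AGT, a choice also made after the values were seen, summed to 665 CPM in VM iAst replicate 3 against 656 and 617 CPM, and to 513 CPM in Control iAst replicate 3 against 581 and 542 CPM. The astrocyte list's median ratio was 0.955 in VM iAst and 0.924 in Control iAst. The 12 mesenchymal markers summed to 740 CPM in VM iAst replicate 3 against 896 and 941 CPM, and to 1250.1 CPM in Control iAst replicate 3 against 1943.8 and 1896.5 CPM. The mesenchymal list's median ratio was 0.795 in VM iAst and 0.690 in Control iAst. Its single ratios ran from 0.657 to 1.69 in VM iAst and from 0.389 to 0.940 in Control iAst, so the Control iAst fall ran through the whole list. The 12 progenitor markers spanned 1553.2 to 1654.4 CPM in VM iAst and 1552.3 to 1650.2 CPM in Control iAst. The 8 pluripotency markers summed to 17.3 CPM in VM iAst replicate 3 and 14.97 CPM in Control iAst replicate 3, and to 7.35 to 9.60 CPM in the other 4 libraries, with TDGF1 and UTF1 at 0 throughout. Most of the replicate 3 sums came from DPPA4, at 7.06 CPM in VM iAst and 6.85 CPM in Control iAst, and DNMT3B, at 8.15 and 6.33 CPM. In replicate 3 POU5F1 was at 0 in both groups, and NANOG was at 1.49 and 1.71 CPM, against 0 to 0.501 CPM in the other libraries. The part of these cell types, of depth and of the mitochondrial share in the ratios was not tested.

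Between the regional groups, none of the 47 members tested reached an adjusted p under 0.05 in edgeR (quasi-likelihood test, Benjamini-Hochberg). Of all 15984 genes tested, 2.15% passed, 1.06% higher in VM iAst and 1.09% lower. At an unadjusted p under 0.05 there were 0 of 23 G2/M genes, 0 of 16 S genes and 1 of 8 G1 genes, against 12% of all genes tested, and DESeq2 and limma voom called 0 in each phase. The fold changes still leaned by phase. They were positive, meaning higher in VM iAst, for 22 of 23 G2/M genes, 15 of 16 S genes and 1 of 8 G1 genes, against 8263 of 15984 genes tested. The median log2 fold change was 0.52 for G2/M, 0.32 for S and -0.26 for G1 genes, against 0.01 for all genes tested. The G2/M standard errors were 0.59 to 1.23 on the log2 scale, in a fit that counts the gap between replicate 3 and the other libraries as spread. Without VM iAst replicate 3 the G2/M median was -0.61, and without Control iAst replicate 3 it was 1.52.

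The pairing by number was read from correlations over all genes tested, these members among them, and not from labels. Within the pairs so formed the lean held. The median log2 ratio of VM iAst to Control iAst in pairs 2, 3 and 4 was 0.52, 0.51 and 0.44 for the G2/M genes, 0.47, 0.23 and 0.28 for the S genes, and -0.28, -0.19 and -0.49 for the G1 genes. VM iAst was higher in all 3 pairs for 16 of 23 G2/M, 7 of 16 S and 0 of 8 G1 genes, against 21.1% of all genes tested. It was lower in all 3 pairs for 0 G2/M genes, 1 S gene and 3 G1 genes, against 20.4%.

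The replicate number was also used as a block, in edgeR only, although that pairing came from these data. In the blocked fit 10 of 23 G2/M genes and 2 of 16 S genes were higher, against 3.63% of all genes tested. There 1 of 8 G1 genes was lower, against 4.5%. In either direction 8.13% of all genes tested passed. When pair 2, 3 or 4 was left out of that fit, 4, 4 and 7 G2/M genes and 1, 2 and 1 S genes passed as higher, against 2.38%, 2.25% and 2.21% of all genes tested in those fits. CENPF and MCM7 were called each time, whereas KIF20A, BIRC5, TPX2 and CDK6 were called in none of these reduced fits. The reduced fits share their libraries with the full blocked fit and leave few libraries to estimate spread, so they are no independent check. CENPF, a kinetochore protein (chr1:214603195-214664588), was at 212, 954 and 196 CPM in VM iAst replicates 2, 3 and 4, and at 134, 522 and 83.7 CPM in Control iAst. Each VM iAst library stood over the Control iAst library of its number, while the groups overlapped. The blocked log2 fold change of CENPF was 0.92 ± 0.13 (SE; by edgeR, adjusted p = 0.000451, against 0.854 without the block).

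The other mitotic genes past the blocked test were spread over several functions. BUB1B was at 15.9, 58.1 and 13.03 CPM in VM iAst and at 8.27, 40.7 and 4.61 CPM in Control iAst, a difference of 0.94 ± 0.21 on the log2 scale with the block (SE; adjusted p = 0.0108 by edgeR). CCNB2 was at 31.6, 64.8 and 16.9 CPM in VM iAst and at 12.5, 43.3 and 9.91 CPM in Control iAst, with 0.89 ± 0.18 (SE; edgeR adjusted p = 0.00639). Both were higher in VM iAst in each pair. TOP2A was at 720, 2450.3 and 703 CPM in VM iAst and at 501, 1689.3 and 520 CPM in Control iAst, a difference of 0.50 ± 0.10 with the block (SE; adjusted p = 0.00784 by edgeR). ANLN, CDC20, CENPE, KIF20A, BIRC5 and TPX2 rose by 0.76, 0.64, 0.64, 0.61, 0.52 and 0.45 on the log2 scale in that fit (edgeR adjusted p from 0.00702 to 0.0431). KIF20A overlaps CDC23 and BRD8 on the other strand, each with at least as many reads. MKI67, with a blocked log2 fold change of 0.32 ± 0.13 (SE), and the mitotic kinases AURKA, AURKB and PLK1, with 0.05, 0.18 and 0.13, did not pass.

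**Figure D4:**
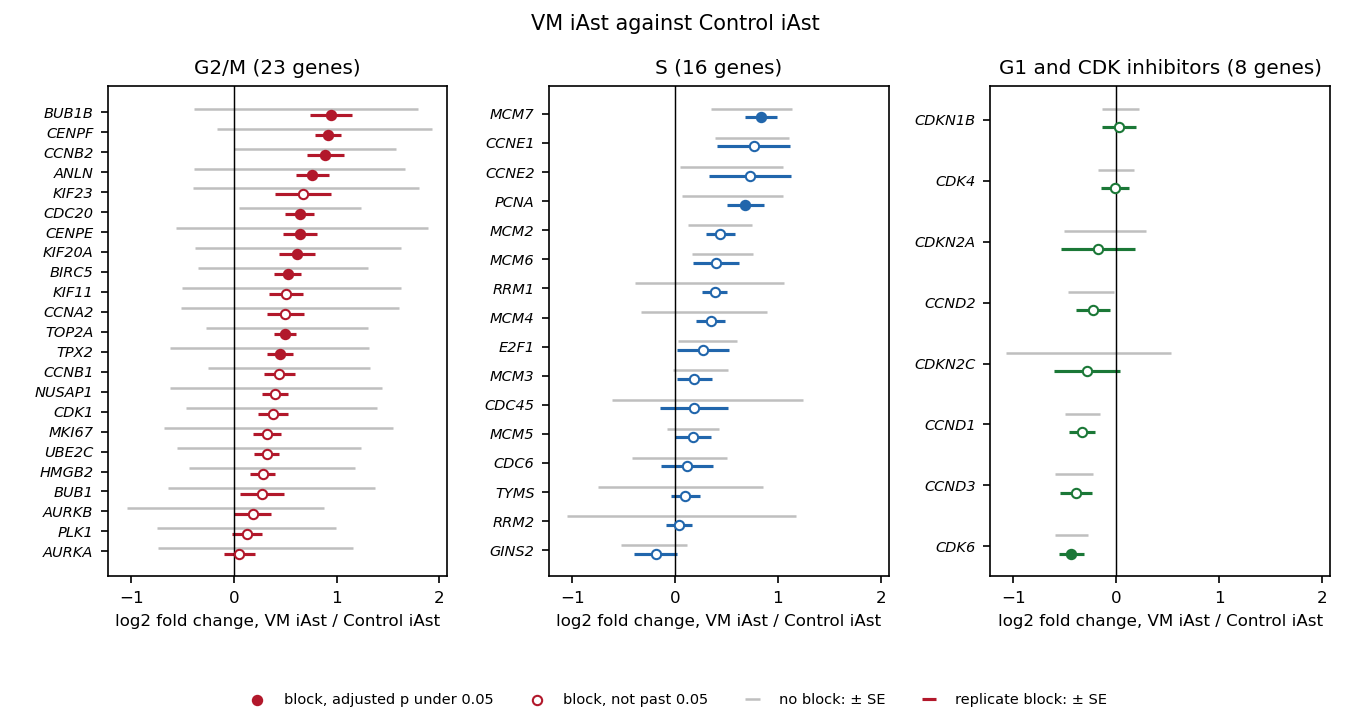
Log2 fold change of VM iAst over Control iAst for each gene with its standard error, with the replicate block as points and coloured bars and without it as grey bars, for 23 G2/M, 16 S and 8 G1 genes. Filled points mark the 10 G2/M, 2 S and 1 G1 genes past an adjusted p of 0.05 in the blocked fit, and the grey bars of most G2/M genes cross 0.

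Among the S genes the 2 calls were MCM7 and PCNA, whose promoters are shown above. MCM7 (chr7:100092728-100101940) was at 59.5, 91.1 and 57.0 CPM in VM iAst replicates 2, 3 and 4 and at 30.6, 67.8 and 25.9 CPM in Control iAst, with a blocked log2 fold change of 0.84 ± 0.15 (SE; by edgeR, adjusted p = 0.00361, against 0.551 without the block). PCNA was at 44.3, 60.7 and 30.7 CPM in VM iAst and at 20.6, 54.0 and 17.7 CPM in Control iAst, with 0.68 ± 0.18 (SE; edgeR adjusted p = 0.0323). The gap between groups was wider in pairs 2 and 4 than in pair 3 for both genes. MCM7 also passed without the block when Control iAst replicate 3 or both replicate 3 libraries were left out. AP4M1 overlaps MCM7 on the other strand with 27.5% as many reads. The other 5 MCM subunits had blocked fold changes of 0.18 to 0.44 on the log2 scale and did not pass. RRM2 and TYMS, with ratios of over 3-fold for replicate 3, had 0.04 and 0.10 between the regional groups. CCNE1 was the single member whose groups did not overlap upward, at 5.14, 6.59 and 6.30 CPM in VM iAst and at 3.88, 4.28 and 2.57 CPM in Control iAst (edgeR adjusted p = 0.453, and 0.252 with the block), against 9.17% of all genes tested.

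Among the G1 genes CDK6, a kinase partner of cyclin D (chr7:92604921-92836594), was at 58.0, 49.9 and 46.1 CPM in VM iAst and at 79.2, 64.2 and 65.1 CPM in Control iAst. The groups did not overlap, which held downward for 8.75% of all genes tested. CDK6 fell by 0.44 ± 0.12 on the log2 scale in the blocked fit (SE; edgeR adjusted p = 0.0455, against 0.267 without the block). CCND1 and CCND3 were also lower in VM iAst in each pair, with blocked log2 fold changes of -0.33 and -0.39 that did not pass. CCND3 averaged 32.4 ± 2.03 CPM in VM iAst and 43.1 ± 8.99 CPM in Control iAst (SD, n = 3 each). CDK4, CDKN1B and CDKN2A had log2 fold changes between -0.18 and 0.04 in both fits.

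Of the further cell cycle genes, none of 61 G2/M, 47 S, 22 inhibitor and p53 target or 25 regulator genes tested passed edgeR's test without the block. At an unadjusted p under 0.05 there were 0, 0, 4 and 2 of them, against 12% of all genes tested. DESeq2 and limma voom called 0 in each list. With the block, 11 G2/M and 4 S genes were higher, 2 inhibitor or p53 target genes were lower and 1 of 25 regulators was higher, against the 3.63% higher and 4.5% lower of all genes in that fit. PBK, a mitotic kinase, had a blocked log2 fold change of 1.01 ± 0.17 (SE; by edgeR, adjusted p = 0.00147), and BLM, a helicase of DNA repair, had 1.23 ± 0.24 (SE; edgeR adjusted p = 0.00534). CDKN1C (p57), a CDK inhibitor, fell by 0.51 on the log2 scale, at 168, 145 and 189 CPM in VM iAst replicates 2, 3 and 4 and at 224, 217 and 278 CPM in Control iAst. The stress-induced GADD45A fell by 0.47, and CDK2, the kinase of cyclins E and A, rose by 0.50. CDKN1A, at 150, 134 and 141 CPM in VM iAst and at 159, 124 and 150 CPM in Control iAst, had -0.02 ± 0.12.

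Marker levels of other cell types differed between the regional groups too. The 12 mesenchymal markers summed to 896, 740 and 941 CPM in VM iAst replicates 2, 3 and 4 and to 1943.8, 1250.1 and 1896.5 CPM in Control iAst, and 4 of the 12 tested passed edgeR's test without the block, all lower in VM iAst. With the block 6 were lower and 1 was higher. Beside the edgeR counts here, 1.06% of all genes tested were higher and 1.09% lower without the block, and 3.63% and 4.5% with it. At an unadjusted p under 0.05 the share without the block was 12%. The neuron markers summed to 858 to 1250.1 CPM in VM iAst and to 1357.9 to 2101.0 CPM in Control iAst. They gave 0 calls among the 13 tested in edgeR without the block, with 5 at an unadjusted p under 0.05. DESeq2 called 5 of 14 neuron, 8 of 12 mesenchymal, 4 of 14 astrocyte, 3 of 12 progenitor and 3 of 7 oligodendrocyte markers. With limma voom the calls were 0 of 13, 3 of 12, 3 of 14, 2 of 12 and 1 of 5. The share of all genes that each of these tools called is not given here. In the blocked edgeR fit, on which the cell cycle calls rest, 6 of the 13 neuron markers were lower in VM iAst and 0 higher. Of the 14 astrocyte markers 4 were higher in VM iAst and 0 lower without the block, and 4 were higher and 3 lower with it (SOX9, GJA1 and CD44). The lists for microglia with endothelium and for oligodendrocytes summed to 8.52 to 10.8 and 132 to 142 CPM in VM iAst and to 15.8 to 18.7 and 159 to 199 CPM in Control iAst, with AIF1 and SOX10 at 0 throughout. Of the 5 oligodendrocyte genes tested, BCAS1 was higher and PDGFRA lower without the block, and 2 were higher and 2 lower with it. Of the 12 progenitor markers, PROM1 was higher and PAX6 lower without the block, and 2 were higher and 1 lower with it. The microglia and endothelium list had 0 calls among 4 tested in both fits. The part of these cell types in the cell cycle fold changes was not tested.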

How the data were processed

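The authors made 3' end libraries of polyadenylated RNA with the QuantSeq FWD kit, per the labels' protocols. Per the submitters' processing notes they used Salmon, DESeq2 1.27.12 and GRCh38.p13. The deposited files give estimated counts and TPM per transcript for each library, and a table of normalized gene signal. TPM, deposited by the authors, was not used. Estimated counts were summed per gene with GENCODE (GRCh38), matching 205225 of 226608 transcripts by identifier without version, and rounded. Unmatched transcripts held 0.992% to 1.12% of reads. edgeR 4.0.16 in R 4.3.3 (filterByExpr, TMM, robust quasi-likelihood) tested 15984 genes, 47 of the 48 members among them, with Benjamini-Hochberg adjustment. CPM uses TMM-scaled totals, and 3' counts were not divided by length. A standard error is the absolute log2 fold change over the square root of F.

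Deviations from the group means correlated at 0.234, 0.345 and 0.204 between same-numbered libraries and at most at 0.0237 between others, so the numbers were taken to pair the samples. This comes from the data and not from the labels, and deviations within a group of 3 depend on each other. Whether counting used strand is not stated, and 9 members overlap an opposite-strand gene with at least 10% as many reads (CCNA2, KIF20A, MCM2, MCM7, TYMS, CCNE2, GINS2, CCND1 and CDK4), so their levels are uncertain. All 48 members are named, and members and lists were chosen with earlier results of these data known. The alternatives covered scaling (RLE, upper quartile), filtering (none, or 2 CPM in 3 libraries), DESeq2 1.42.0, limma 3.58.1 (voom, and the deposited signal as log2(value + 1) where at least 10 in 3 libraries), the replicate block and left-out libraries.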

Additional observations from a re-analysis of the deposited data

How the results depend on the processing

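Between the regional groups, edgeR called 344 genes, against 1012 with no low-count filter, 722 with DESeq2, 191 with the deposited normalized values, 1300 with the replicate block and 131 to 258 with libraries left out. With the replicate block and replicate 2, 3 or 4 left out of both groups, alternatives chosen after seeing the data, it called 910, 853 and 762. The G2/M calls were 10 with the block and 4, 4 and 7 in those 3 fits, and 0 to 0 with libraries left out and no block. CENPF passed in each of the 4 blocked fits. The S calls were 2 with the block and 1, 2 and 1 in those fits, 1 with no filter and 0 to 1 with libraries left out, and MCM7 was among them each time. The G1 calls were 1 with the block and 0 in those fits, so the CDK6 call needed all 3 pairs. With libraries left out the median log2 fold change ranged from -0.61 to 1.52 for G2/M, -0.0841 to 0.92 for S and -0.33 to -0.0944 for G1 genes, and in the blocked fit without replicate 4 that of the G1 genes was 0.0127. The median log2 ratio of replicate 3 was 0.75 for VM iAst S genes with the deposited values, against 0.85, and 0.13 for VM iAst G1 genes with upper-quartile scaling, against 0.16. Members that did not pass and changed sign were MKI67 (-0.0069), AURKA (-0.0054), CDC6 (-0.0523) and CDKN1B (-0.0212) with the deposited values, AURKB with voom (0.22), the deposited values (0.26) and the block (0.18), and CDK4 (0.0062) with no filter. With libraries left out, the log2 fold changes of members that changed sign spanned these ranges: MKI67 -0.97 to 1.63, TOP2A -0.34 to 1.34, CCNB1 -0.33 to 1.26, CCNA2 -0.73 to 1.73, CDK1 -0.64 to 1.40, BUB1 -0.86 to 1.44, BUB1B -0.30 to 2.17, AURKA -1.01 to 1.11, AURKB -0.86 to 1.26, BIRC5 -0.33 to 1.40, UBE2C -0.61 to 1.25, PLK1 -0.78 to 1.08, TPX2 -0.62 to 1.52, NUSAP1 -0.71 to 1.57, CENPE -0.82 to 1.99, CENPF -0.27 to 2.06, HMGB2 -0.58 to 1.12, KIF11 -0.71 to 1.74, KIF20A -0.52 to 1.74, KIF23 -0.54 to 1.91, ANLN -0.39 to 1.94, MCM3 -0.14 to 0.41, MCM4 -0.23 to 0.996, MCM5 -0.0329 to 0.35, RRM1 -0.36 to 1.14, RRM2 -1.24 to 1.34, TYMS -0.73 to 0.95, CDC6 -0.32 to 0.65, CDC45 -0.96 to 1.29, GINS2 -0.49 to 0.14, CCND2 -0.51 to 0.0271, CDKN1B -0.15 to 0.15, CDKN2A -0.47 to 0.15, CDKN2C -0.96 to 0.69, CDK4 -0.17 to 0.11. Without VM iAst replicate 3 CDKN1B had -0.0925, and without replicate 3 in both groups AURKA had -0.11, AURKB 0.48, MCM3 -0.0329 and CDKN1B -0.15. Each fit that leaves out 1 library of a group sets unequal numbers of replicate 3 libraries against each other. RLE and upper-quartile scaling and the 2 CPM filter changed no member's call or sign. Ratios of replicate 3 rest on 1 library a group, and at 2 to 7 CPM (CCNE1, CCNE2, CDKN2A) depth limits them.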
